A study of Mus musculus with 8 samples.

Results

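The SLC25 family of mitochondrial carriers was followed in primary hepatocytes that had been given the glucose-lowering biguanide metformin. Members were the probes of the deposited table whose gene symbol is Slc25a with a number, or Ucp1, Ucp2 or Ucp3, without Slc25a1, Slc25a15 and Slc25a20. The rule itself reads symbols only, though the family was picked for description with earlier results of these data known. It gave 37 of 16304 probes, which stand for 27 of 10944 genes, and no probe of Ucp1, Ucp2 or Ucp3 was among them. The cells came from the livers of male C57Bl6/J mice, freed by collagenase perfusion. The metformin group held 4 wells treated at 500 µM for 24 h. The control group held 4 wells of the same kind of cells at 24 h, named only as control. No genetic change is named for either group. Nothing in the labels tells if wells of 1 group had separate animals or isolations behind them. The p-values therefore cover the spread between wells alone, which may be technical or may include differences between cell preparations.

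SLC25 carriers are small proteins, nearly all in the inner mitochondrial membrane, that exchange 1 metabolite for another between cytosol and matrix. They carry ADP and ATP, phosphate, dicarboxylic acids, amino acids, cofactors and iron. In hepatocytes they join mitochondrial to cytosolic steps of gluconeogenesis, ureagenesis and the shuttling of reducing equivalents. Metformin is known to act on mitochondria, with respiratory complex I and the mitochondrial glycerol phosphate dehydrogenase among its proposed targets.

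Slc25a45 fell with metformin, and it was the only carrier of the 27 to pass the test. Its intensity with metformin was 0.509 times that of control. Among the other 26 carriers the size of the log2 difference was below 0.5 in each, as it was for 85.4% of all genes. Slc25a17, the peroxisomal member of the family, Slc25a28, an iron carrier, and Slc25a14 were lower in all 4 metformin wells than in any control well. Slc25a11, the malate and oxoglutarate carrier, and Slc25a33 were higher in all 4, though Slc25a11 only at its brightest probe, and none of these carriers passed. With Slc25a45 the groups did not overlap for 6 of the 27 carriers, against 15.3% of all genes. Slc25a5, which exchanges ADP for ATP, and Slc25a3, which imports phosphate, differed by less than the spread between wells.

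The brightest probe was used for each gene, values are log2 intensities, and a difference is metformin minus control. The test was limma's moderated linear model on all genes, and a gene passed at a Benjamini-Hochberg adjusted p under 0.05 over the 10944 genes. Differences are given ± their standard error, and means ± the SD over 4 wells. Of the 27 carriers 0 rose and 1 fell. Of all genes tested, 3.32% rose and 3.44% fell, together 6.76%, so the carriers' share was near the background. At an unadjusted p under 0.05 stood 5 carriers, against 23.8% of all genes. The groups did not overlap for 6 carriers, 2 higher and 4 lower, against 15.3% of all genes (7.7% higher and 7.57% lower). Lower values with metformin were seen for 17 carriers and higher values for 10. The carriers' median difference was -0.11, beside 0.010 for all genes. The median size of the difference, without its sign, was 0.19 for carriers and 0.20 for all genes.

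**Figure D1:**
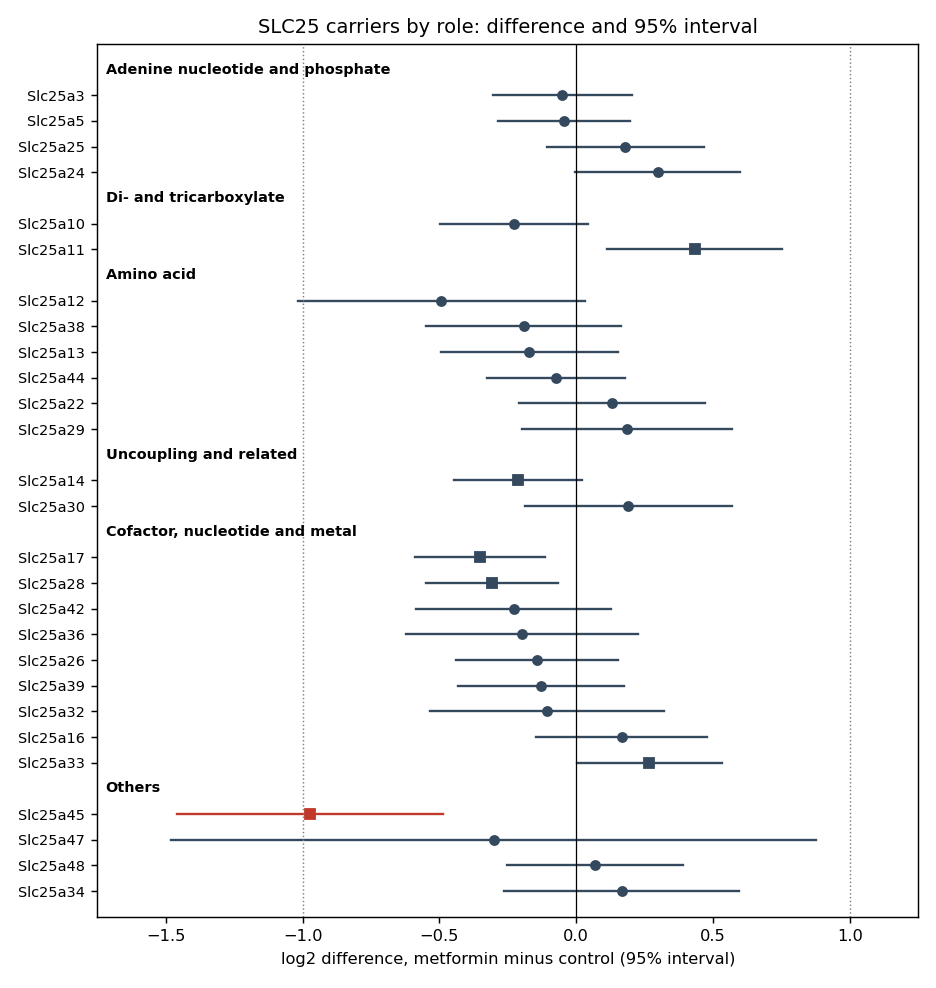
Difference in log2 intensity, metformin minus control, of the 27 carriers, grouped by role. Lines are 95% intervals of the limma model (n = 4 wells per group), squares mark carriers whose groups do not overlap, red marks the 1 carrier past the threshold, and dotted lines stand at a 2-fold change. Slc25a45 is the only carrier in red, at -0.97, and 24 of the 27 intervals stay between the dotted lines.

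The intervals are those of the main fit, which ignores the pairing by replicate number, and give the size of change that this fit leaves possible. For 24 of the 27 carriers the 95% interval lay inside a 2-fold change in either direction, as it did for 87.3% of all genes, and for 19 inside a 1.5-fold change. The 3 intervals that reached 2-fold were those of Slc25a45, Slc25a12 and Slc25a47. Their standard errors in that order were 0.217, 0.234 and 0.526, and 0.224, 0.159 and 0.326 with the replicate block. The median SD between wells of a group was 0.19 for the carriers and 0.24 for all genes. By mean level 17 carriers lay above the table's median and 4 in its lowest 25%, where a probe near background can understate a change.

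Slc25a45 is a carrier that work in human cells has linked to the uptake of methylated amino acids for carnitine synthesis. It had 7.39, 6.84, 6.55 and 7.25 log2 units in the metformin wells, against 7.55, 7.96, 8.19 and 8.22 in the control wells. Each metformin well lay below each control well, although metformin replicate 1 and control replicate 1 stood only a short way apart. The mean was 7.01 ± 0.388 with metformin and 7.98 ± 0.309 in control (SD, n = 4). The difference was -0.97 ± 0.22, with a 95% interval from -1.46 to -0.49 (limma adjusted p = 0.0324). The call rested on most of the wells. Without metformin replicate 2 or 3 the adjusted p was 0.0911 and 0.0899, and without control replicate 2, 3 or 4 it was 0.0758, 0.0871 and 0.0812. Over the 8 fits with 1 well removed, the difference ran from -1.12 to -0.82.

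**Figure D2:**
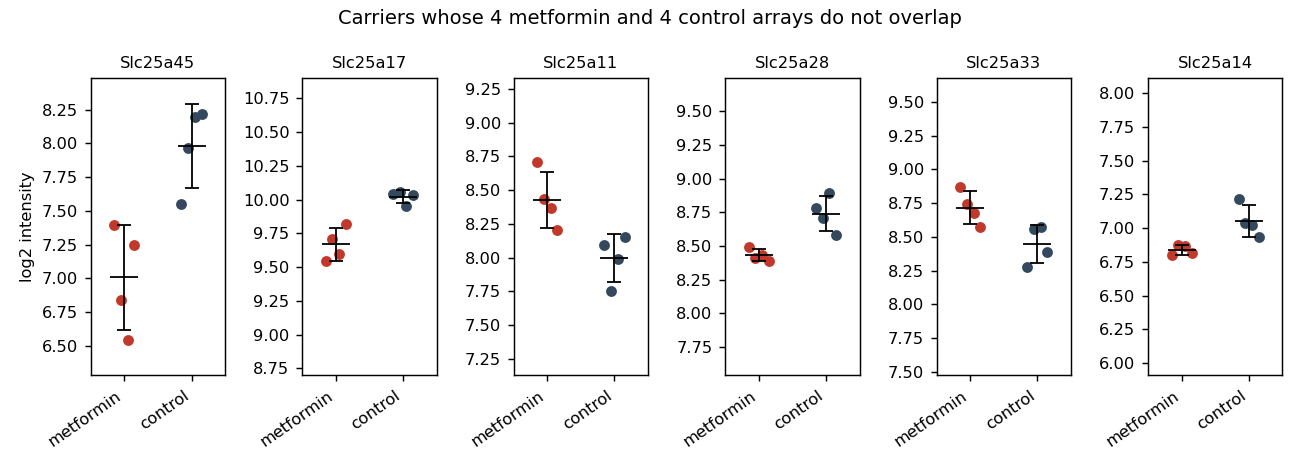
Log2 intensity in each well (points) for the 6 carriers whose groups do not overlap at the brightest probe, metformin on the left and control on the right, with the mean and SD (n = 4 each). Each panel spans the same number of log2 units around its own middle. Slc25a45, Slc25a17, Slc25a28 and Slc25a14 are lower with metformin, and Slc25a11 and Slc25a33 are higher.

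Of the 3 carriers with the smallest p, only Slc25a45 passed the test. The stretches of 250 bases before their transcription starts are shown as proximal promoters. The arrays measure no binding there. They are RefSeq sequences of GRCm38.p6, 5′ to 3′ on the gene's strand, with a match to the motif of the mitochondrial gene regulator GABPA (CCGGAAG) in capitals. The window of Slc25a45 is chr19:5877572-5877821 on the plus strand, that of Slc25a17 chr15:81360766-81361015 on the minus strand and that of Slc25a11 chr11:70647040-70647289 on the minus strand.
Slc25a45: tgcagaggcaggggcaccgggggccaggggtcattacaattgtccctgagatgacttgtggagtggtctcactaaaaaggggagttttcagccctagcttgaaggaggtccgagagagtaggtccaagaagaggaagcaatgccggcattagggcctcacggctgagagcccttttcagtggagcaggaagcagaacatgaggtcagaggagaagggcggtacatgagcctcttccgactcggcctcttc
Slc25a17: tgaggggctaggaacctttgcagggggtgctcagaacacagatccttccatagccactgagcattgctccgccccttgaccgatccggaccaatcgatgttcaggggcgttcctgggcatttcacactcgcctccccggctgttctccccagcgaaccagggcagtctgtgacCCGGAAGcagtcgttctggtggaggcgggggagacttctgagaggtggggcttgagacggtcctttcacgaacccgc
Slc25a11: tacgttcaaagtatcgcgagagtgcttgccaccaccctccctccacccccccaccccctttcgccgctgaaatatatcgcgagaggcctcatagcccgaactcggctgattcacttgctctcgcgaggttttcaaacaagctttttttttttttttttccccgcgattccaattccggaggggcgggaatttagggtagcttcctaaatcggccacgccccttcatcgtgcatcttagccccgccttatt

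The Slc25a45 window held 7 CpG dinucleotides, that of Slc25a17 14 and that of Slc25a11 19. Over the 24 carriers with a promoter in the RefSeq table the median was 14, the same as over the 8909 measured genes that matched, with a range from 1 for Slc25a34 to 35 for Slc25a39. Matches on either strand were counted for 5 motifs. In the 3 sequences above the only match was that of GABPA in Slc25a17. The GABPA motif was in the windows of 3 carriers, Slc25a3, Slc25a17 and Slc25a38, or 12.5%, against 14.0% of all genes. The E-box CACGTG was found for 4 carriers (16.7%, against 9.77% of genes) and the cyclic AMP response element TGACGTCA for 2 (8.33%, against 2.78%). The NRF1 motif core CGCATGCG and the estrogen-related receptor motif TCAAGGTCA had 0 matches among the carriers, against 3.27% and 0.348% of genes. These are matches of letters and no measure of binding.

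Among the carriers of adenine nucleotides and phosphate 0 of 4 passed in limma, with 0 below 0.05 before adjustment. Slc25a5, the ADP and ATP exchanger that feeds ATP to the cytosol, had 12.91, 12.93, 13.06 and 12.87 log2 units with metformin, against 12.83, 13.11, 13.02 and 12.99 in control. The 2 groups overlapped fully, and the difference of -0.043 ± 0.11 had a 95% interval from -0.28 to 0.20. Slc25a3, which brings in the phosphate for ATP synthesis, had a difference of -0.051 ± 0.11, with an interval from -0.31 to 0.20. Its dimmer probe gave 0.18, of the opposite sign. Slc25a24 and Slc25a25 are calcium-regulated exchangers of ATP-Mg and phosphate that set the size of the matrix nucleotide pool. Slc25a24 had 0.30 ± 0.13 (adjusted p = 0.216) and was higher in each of the 4 numbered pairs of wells, and its 3 probes ran from 0.082 to 0.30. Slc25a25 had 0.18 ± 0.13.

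Both measured dicarboxylate carriers exchange malate, and they had opposite signs. Slc25a11 passes malate against oxoglutarate in the malate-aspartate shuttle. It had 8.71, 8.43, 8.37 and 8.21 log2 units in the metformin wells, against 8.09, 7.75, 7.99 and 8.15 in the control wells. The groups came close at metformin replicate 4 and control replicate 4 but did not overlap. The difference was 0.43 ± 0.14, or 1.35-fold, with an interval from 0.11 to 0.75 (adjusted p = 0.101). Its other probes gave 0.38 and 0.36, from the same wells, and at both of them the groups overlapped. Slc25a10, which exchanges malate or succinate for phosphate, had 8.09, 8.34, 7.98 and 8.08 with metformin, against 8.42, 8.23, 8.49 and 8.26 in control. Only metformin replicate 2 stood within the control range, and the difference was -0.23 ± 0.12 (adjusted p = 0.289). The difference between the 2 carriers was not tested.

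Of the 6 amino acid carriers 0 passed in limma, and 0 were below 0.05 before adjustment. Slc25a12 and Slc25a13 are the aspartate and glutamate carriers, of which Slc25a13 is the liver form. Slc25a12 had 6.17, 5.57, 5.57 and 5.49 log2 units with metformin, against 6.52, 6.47, 6.22 and 5.56 in control. Metformin replicate 1 lay above the other metformin wells and control replicate 4 below the other control wells, so that the groups overlapped. The difference was -0.49 ± 0.23 (adjusted p = 0.235, or 0.0950 in limma with the replicate block), and it was negative in each of the 4 numbered pairs. Slc25a13 had -0.17 ± 0.14, with -0.17 at both of its probes. Slc25a38, which supplies glycine for heme synthesis, had 8.38, 8.46, 8.66 and 8.44 with metformin, against 8.23, 8.74, 8.82 and 8.91 in control. Control replicate 1 was the lowest of the 8 wells, while the other control wells were the highest, and the difference was -0.19 ± 0.16. Its 3 probes gave -0.32, -0.19 and 0.23. Slc25a44, a carrier of branched-chain amino acids, had -0.073 ± 0.11. Slc25a22 for glutamate (0.13 ± 0.15) and Slc25a29 for basic amino acids (0.18 ± 0.17) were read from probes in the lowest 25% of levels. The value of Slc25a29 came from 1 well, since it was 0.0038 without metformin replicate 4.

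Slc25a14 and Slc25a30 are sequence relatives of the uncoupling proteins. Slc25a14 had 6.80, 6.88, 6.87 and 6.82 log2 units with metformin, against 7.22, 7.04, 7.02 and 6.93 in control. The metformin wells stood close together below the control wells, and the difference was -0.21 ± 0.11 (unadjusted p = 0.0714 and adjusted p = 0.254 in limma). Slc25a30 had 8.86, 8.26, 8.46 and 8.44 with metformin, against 8.08, 8.12, 8.50 and 8.56 in control. Those groups overlapped, and its difference was 0.19 ± 0.17.

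In the group of cofactor, nucleotide and metal carriers 0 of 9 passed in limma. Before adjustment 3 were below 0.05, against 23.8% of all genes. Lower values were seen for 7 of the 9. Slc25a17, also known as PMP34, sits in the peroxisomal membrane and exchanges coenzyme A and other adenine cofactors. It had 9.54, 9.71, 9.60 and 9.82 log2 units in the metformin wells, against 10.04, 10.05, 9.95 and 10.04 in the control wells. The control wells stood within a narrow band above all the metformin wells. The difference was -0.35 ± 0.11, with an interval from -0.59 to -0.11 (adjusted p = 0.0799). It passed in 2 of the 17 alternatives, with the lower 50% of genes left out (adjusted p = 0.0436) and with an offset of 16 added to the linear intensities (adjusted p = 0.0446), and over all of them the adjusted p was 0.0436 to 0.196.

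Slc25a28 is mitoferrin 2, which brings iron into the matrix for heme and iron-sulfur clusters. It had 8.49, 8.41, 8.43 and 8.39 log2 units with metformin, against 8.78, 8.71, 8.89 and 8.58 in control. All metformin wells lay in a narrow band below the control wells, and the difference was -0.31 ± 0.11 (adjusted p = 0.117). Slc25a33, a carrier of pyrimidine nucleotides, had 8.87, 8.74, 8.68 and 8.57 with metformin, against 8.28, 8.56, 8.57 and 8.39 in control. Its groups were apart by the narrowest margin, 8.575 in metformin replicate 4 against 8.572 in control replicate 3, and the difference was 0.27 ± 0.12 (adjusted p = 0.208). Slc25a36, the other pyrimidine nucleotide carrier, had -0.20 ± 0.19 at a dim probe. Slc25a39, which imports glutathione, had 10.34, 9.97, 9.97 and 9.79 with metformin, against 10.15, 10.21, 10.20 and 10.02 in control. Metformin replicate 1 was the highest of the 8 wells while the other metformin wells lay below the control wells, and the difference was -0.13 ± 0.14. The remaining members had -0.23 ± 0.16 for Slc25a42, a coenzyme A carrier, 0.17 ± 0.14 for Slc25a16, -0.14 ± 0.13 for Slc25a26, which imports S-adenosylmethionine, and -0.11 ± 0.19 for Slc25a32, a folate and flavin carrier with probes of opposite sign.

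**Figure D3:**
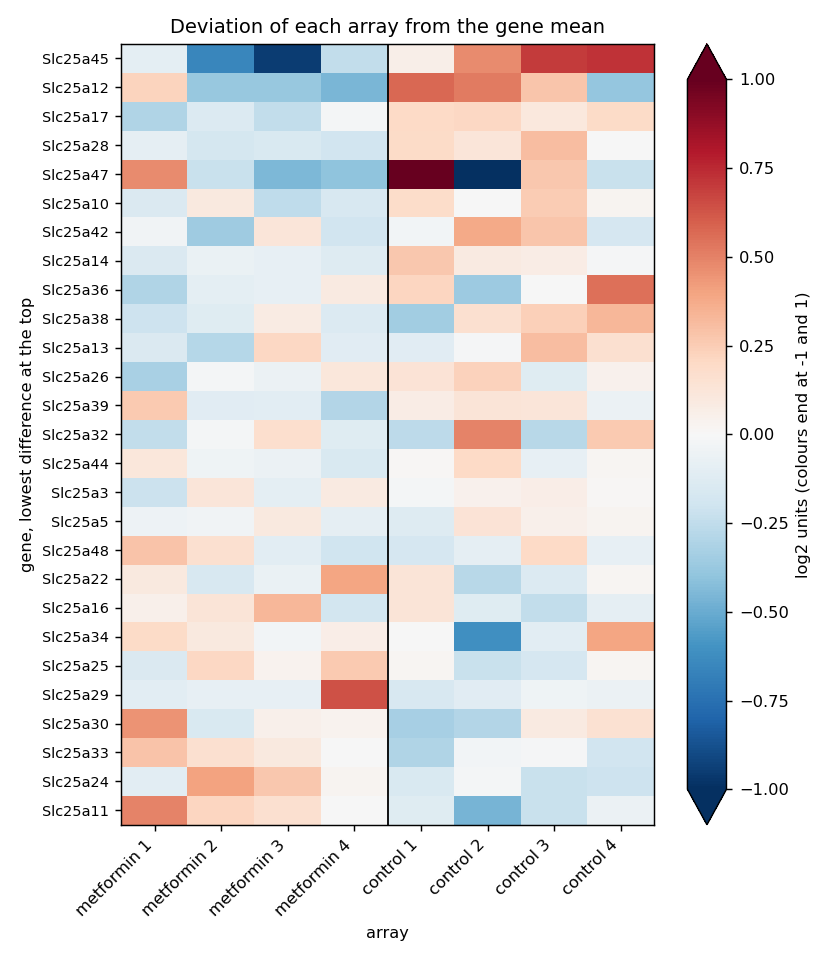
Deviation of each well (columns, metformin left of the line and control right of it) from the mean of the gene over the 8 wells, in log2 units, for the 27 carriers ordered by their difference. Colours end at -1 and 1. The top row, Slc25a45, is lower in each metformin well, while Slc25a47 has its highest and lowest value in 2 control wells.

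Slc25a47, a carrier made mainly in liver, varied most between wells, with an SD larger than that of 99.6% of genes. It had 6.52, 5.83, 5.60 and 5.64 log2 units with metformin, against 7.82, 4.84, 6.32 and 5.83 in control. The control wells alone spanned the whole range of the metformin wells. The difference was -0.30 ± 0.53, with an interval from -1.48 to 0.88, and it was 0.24 without control replicate 1. Changes inside that interval could not be told apart in the main fit. With the replicate block the difference was -0.30 ± 0.33. Slc25a34 had 0.17 ± 0.19, with its other probe at -0.14, and Slc25a48 had 0.069 ± 0.14. All 3, and Slc25a45, were grouped apart as members with the least settled or most recent substrates.

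More than 1 probe was present for 7 of the carriers, 17 probes in all. The probes of 3 of these 7 genes shared a sign, Slc25a11, Slc25a13 and Slc25a24, and those of Slc25a3, Slc25a32, Slc25a34 and Slc25a38 did not. The dimmer probe of Slc25a34 had means of 4.27 with metformin and 4.41 in control, and that of Slc25a32 had 4.76 and 4.57. Any probe's lowest value was 4.16, so the sign of these dim probes tells little. The dimmer probes of Slc25a3 and Slc25a38 lay higher. When each of the 16304 probes was fitted by itself, 1 of the 37 carrier probes passed in limma, that of Slc25a45, while 4 were below 0.05 before adjustment. The shares over all probes of that fit were not counted. Over all genes of the main fit they were 6.76% and 23.8%.

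**Figure D4:**
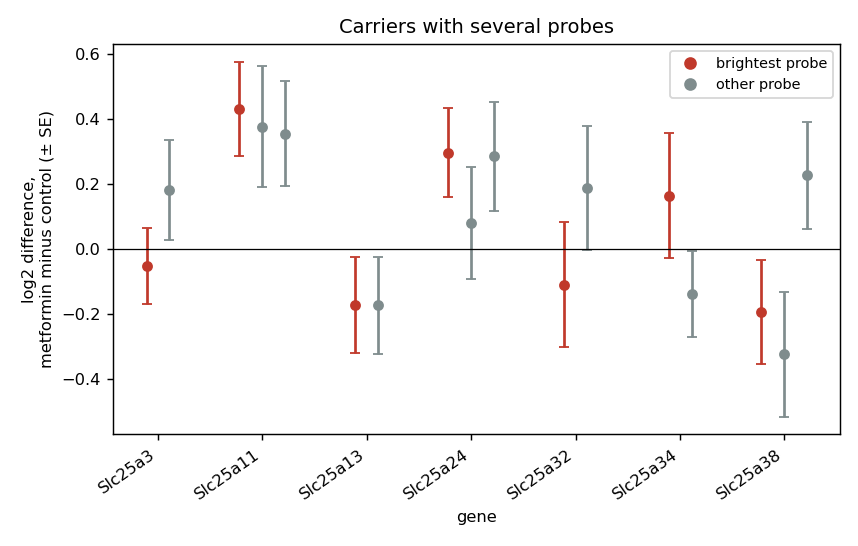
Difference in log2 intensity, metformin minus control, with its standard error (n = 4 wells per group), for each probe of the 7 carriers that have several probes. The brightest probe, used for the gene, is red. The probes of Slc25a11 give 0.36 to 0.43, while those of Slc25a38 run from -0.32 to 0.23.

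By replicate number, 7 carriers were lower with metformin in all 4 pairs of wells (Slc25a12, Slc25a13, Slc25a14, Slc25a17, Slc25a28, Slc25a42 and Slc25a45) and 3 were higher in all 4 (Slc25a11, Slc25a24 and Slc25a33). These 10 of 27 carriers stand beside 33.8% of all genes that moved in 1 direction in all 4 pairs.

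Partners of the carriers were read from 3 lists. Among 13 proteins that bring carriers from the outer membrane and insert them into the inner membrane, 1 was lower and 0 higher past the threshold. Of all genes 3.44% were lower and 3.32% higher, and the median difference of the list was -0.072. The lower member was Timm9, an intermembrane space chaperone that escorts carrier precursors. It had 10.07, 9.94, 10.13 and 10.22 log2 units with metformin, against 10.46, 10.67, 10.56 and 10.44 in control. The groups did not overlap, and the difference was -0.44 ± 0.11 (adjusted p = 0.0469). The call was lost with the replicate number as a block (adjusted p = 0.0746), when every probe was fitted by itself (0.0537) and in each of the 8 fits without 1 well. Its 4 probes ran from -0.45 to -0.34. Timm10, its partner in the same chaperone complex, named after its value was seen, had 0.18 ± 0.13.

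Of 13 measured channels and transporters outside the SLC25 family 0 passed in limma, against 6.76% of all genes. Before adjustment 4 were below 0.05, against 23.8% of all genes. The median difference of the 13 was 0.24, and 10 had higher values. The smallest p was that of Mcu, the pore of the calcium uniporter, with 6.93, 6.94, 7.34 and 7.17 log2 units with metformin, against 6.74, 6.87, 6.19 and 6.76 in control. The difference was 0.46 ± 0.17 (adjusted p = 0.140, or 0.0497 with the mean of its probes), and the groups did not overlap.

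Among enzymes that hand metabolites to carriers 1 of 16 measured rose and 0 fell, against 3.32% and 3.44% of all genes. The median difference of these enzymes was -0.052. The one that rose was Pcx, pyruvate carboxylase, which makes oxaloacetate in the matrix. It had 6.24, 6.54, 6.31 and 6.11 log2 units with metformin, against 5.31, 4.98, 5.42 and 4.91 in control. The groups did not overlap, and the difference was 1.15 ± 0.15 (adjusted p = 0.00855), read from a probe in the lower 50% of levels. The enzymes of the redox shuttles were looked at after their values were seen, since Slc25a11, Slc25a12 and Slc25a13 serve the malate-aspartate shuttle. Cytosolic Got1 had 0.51 ± 0.23 and mitochondrial Got2 -0.14 ± 0.11. The malate dehydrogenases had -0.17 ± 0.15 for Mdh1 and -0.19 ± 0.12 for Mdh2. In the glycerol phosphate shuttle, which needs no SLC25 carrier, cytosolic Gpd1 had -0.66 ± 0.27 and mitochondrial Gpd2 0.21 ± 0.13. The adjusted p of Gpd1 in limma was 0.183, or 0.0832 with the replicate block. The probes of Gpd2 disagreed in sign, from -0.078 to 0.21, with 0.064 for their mean, as did those of Mdh1, from -0.17 to 0.32. None of these 6 passed.

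Of 8 listed hepatocyte markers 7 were measured, and their summed linear intensity was 24988 to 32526 with metformin and 23919.5 to 34045 in control. Ttr, Apoc3, Apoa1, Hnf4a and Ass1 lay in the upper 50% of levels, and Alb and Cps1 in the lower 50%. Markers of other liver cells were measured as well. Sinusoidal endothelial markers, 7 of 7 measured, summed to 440 to 1500.2 with metformin and to 471 to 1057 in control. Kupffer markers, 5 of 7 measured, summed to 198 to 674 with metformin and to 246 to 901 in control. Stellate markers, 6 of 7 measured, summed to 1612 to 3903 with metformin and to 1666 to 3691 in control. By replicate number these sums were 2780, 1612, 2400 and 3903 with metformin, and 2523, 1666, 1979 and 3691 in control. Their order by replicate number was thus the same in both groups, which held for no other marker list. The cause was not tested. Most of the stellate sum was Dcn, with a mean of 11.2 log2 units with metformin and 11.1 in control. The other measured stellate markers had means of 4.63 to 5.44 with metformin and 4.65 to 5.41 in control. Biliary markers, 3 of 5 measured, summed to 515 to 1063 with metformin and to 366 to 693 in control. Leukocyte markers, 2 of 5 measured, summed to 44.2 to 53.9 with metformin and to 41.2 to 81.2 in control. Of these marker genes 0 passed in limma, against 6.76% of all genes, and 2 were below 0.05 before adjustment, against 23.8%. With the replicate block 4 markers passed, where 8.49% of all genes passed. These 4, named after their values were seen, were Lyve1 (1.28), Stab2 (0.54) and Krt19 (0.91), which were higher with metformin, and Vsig4 (-0.81), which was lower. Kdr, Clec4f, Timd4, Col1a2 and Ptprc lay in the lowest 25% of levels. The lowest value of any probe was 4.16 log2 units, so a value above 0 does not show that a marker was detected. All 7 endothelial markers had higher values with metformin (median 0.22), as did all 3 biliary markers (median 0.91), while 4 of 5 Kupffer markers had lower values (median -0.16). The part of these cells in the carriers' values was not tested. In such bulk samples fewer cells of a type and less RNA per cell cannot be told apart.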

How the data were processed

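RNA of 8 wells was read on an Illumina mouse bead array. The values are the log2 intensities deposited by the authors, 16304 probes with 0 missing values between 4.16 and 14.4; limma 3.26.9 and R 3.2.3 are named per the submitters' processing notes, with no role given. Background correction, normalization and probe filter: not given in the sources used here. Array medians were 6.48 on all arrays, so no further normalization was applied. Precision is limited by the number of arrays.

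Gene names came from the platform annotation and the Entrez number in RefSeq (GRCm38.p6): 15301 had 1 symbol, 0 several, and 1003 are unnamed here. The brightest probe stood for each of 10944 genes. The model was limma 3.58.1 (lmFit, eBayes; R 4.3.3), two-sided, tested on simulated data first. Correlations were 0.978 to 0.990 within metformin, 0.972 to 0.987 within control and 0.961 to 0.983 between groups. Deviations of same-numbered wells correlated at 0.32, 0.28, 0.15 and 0.23. On this basis, from the data alone, equal numbers were treated as pairs in the counts of pairs and in the replicate-block fit. The main fit had no block, so its standard errors, intervals and p-values ignore the pairing. Replicate-block values appear where they change a call and for Slc25a12, Slc25a45, Slc25a47 and Gpd1.

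The members and lists were chosen with earlier results of these data known. Every measured carrier is named. Well values are given for carriers past the threshold, those whose groups do not overlap, the brightest of each role and, chosen after seeing values, Slc25a12 and Slc25a47. From each of the 3 partner lists the genes past the threshold, or the smallest p, are named, and other names are marked; marker genes are given as lists. Alternatives changed the probe rule, filter, normalization, offset, spread estimate, array weights, block and number of wells.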

Additional observations from a re-analysis of the deposited data

Results flagged for a closer look

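Of the wells of each carrier and of the 10 named partner genes, 2 stood far from the other 3 wells of their group. Chance flags about 1 in 20 groups, and 74 groups were looked at. Slc25a12 had 6.17 log2 units in metformin replicate 1, against 5.49 to 5.57 in the other metformin wells. Slc25a29 had 5.20 in metformin replicate 4, against 4.46 to 4.49 in the other metformin wells.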

How the results depend on the processing

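In the 17 alternatives the number of carriers that rose stayed at 0. The number that fell was 1, or 2 with the lower 50% of genes left out and with the offset of 16, and 0 to 1 in the 8 fits without 1 well, which also hold fewer wells. The share of all genes that passed was counted only for the main fit and the replicate block. Counts of the other settings therefore have no background beside them and are not read as a result about the carriers. The carriers' median difference of -0.11 became -0.073 with the mean of probes and also with the lower 50% of genes left out, and -0.052 with array weights, and it was -0.11 to -0.047 without 1 well. The cause was not tested. With the replicate block the median was -0.11 and 1 carrier fell, beside 8.49% of all genes past the threshold in that fit, and the pairing changed no call among the carriers. The insertion list had 0 members past the threshold with the replicate block and when every probe was fitted, and 0 to 1 without 1 well. That 1, without control replicate 1, was not Timm9 but Tomm22 (limma adjusted p = 0.0488), named after its value was seen. The other transporters had 1 with the mean of probes, and the shuttle enzymes 0 with the lower 50% of genes left out, which removed Pcx. Of the carriers, 23 were left by the 25% filter and 17 by the 50% filter.

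Signs turned for 5 carriers and for Mdh1. With the mean of probes Slc25a3 became 0.066, Slc25a32 0.041 and Mdh1 0.016. In the fits without 1 well, Slc25a3 ran from -0.10 to 0.013 (positive without metformin replicate 1), Slc25a32 from -0.22 to 0.038 and Slc25a34 from -0.012 to 0.32 (both turned without control replicate 2), Slc25a47 from -0.76 to 0.24 (positive without control replicate 1) and Slc25a48 from -0.015 to 0.15 (negative without metformin replicate 1).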
